A study of Mus musculus with 12 samples.

Results

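The genes described here are Syndig1, Serpinb1c, Sprr1a, Lrp8, Lman1l, Nlrc3, Slc22a4, Ppm1e, Cnksr1 and Plekho1, 10 of 54146 gene records counted in each of 12 mouse heart libraries. They were chosen by name for a strong rise in wild-type hearts after transverse aortic constriction (TAC) over wild-type hearts after sham surgery. TAC is an operation in which the aortic arch is narrowed, so that the left ventricle pumps against a higher pressure, and in the sham operation no narrowing is made. Each of the 10 symbols matched 1 protein-coding record, and all 10 were among the 15477 genes with enough counts to be tested. The 3 groups of 4 libraries were hearts of Nron knockout mice after TAC (TAC KO), of wild-type mice after TAC (TAC WT) and of wild-type mice after the sham operation (Sham WT), all taken 6 weeks after the operation. Polyadenylated RNA of heart tissue, a mixture of cell types, was sequenced. The labels give no allele, strain, sex or age, and knockout hearts after sham surgery were not analysed here, so an effect of the knockout that does not depend on TAC cannot be told apart from one on the response to TAC. The labels do not say whether the libraries of a group came from separate animals. Replicate numbers follow the order of the accessions.

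Pressure overload makes cardiomyocytes grow and turns on a stress program of which the natriuretic peptides, skeletal actin and the slow myosin heavy chain are the usual readouts. Nron is a long noncoding RNA known as a repressor of the transcription factor NFAT, which carries calcium signals from calcineurin to the nucleus and is a driver of hypertrophic growth in the mouse heart. The 10 genes belong to other families, namely receptors and transporters of the cell membrane, a lectin of the secretory route, a protease inhibitor, an epithelial structural protein, and phosphatases, scaffolds and sensors inside the cell.

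Library totals ran from 28565856 to 35777820 counts in TAC KO, from 26288519 to 35945770 in TAC WT and from 27596898 to 35491024 in Sham WT. Levels are given as CPM, the usual scaling of counts to library size, after TMM scaling, whose factors lay between 0.977 and 1.04. Both annotated records of Nron had 0 counts in all 12 libraries, which allows up to 3 counts or 0.082 to 0.11 CPM in each, so the knockout could not be checked from its own transcript. The summed level of 5 ventricular stress markers (Nppa, Nppb, Acta1, Myh7 and Ankrd1) was 6620 to 11200 CPM in TAC KO, 18300 to 28800 CPM in TAC WT and 1990 to 3630 CPM in Sham WT. All 5 were called lower in TAC KO than in TAC WT and higher than in Sham WT in both TAC groups. The 6 cardiomyocyte markers summed to 53400 to 56800 CPM in TAC KO, 53600 to 58300 CPM in TAC WT and 60500 to 70400 CPM in Sham WT, so markers of the labelled tissue were abundant in every library. The difference in log2 level between the fifth of tested genes richest in G and C and the fifth poorest in them, each library set against the mean of all, was 0.10 to 0.44 in TAC KO, -0.15 to -0.06 in TAC WT and -0.12 to -0.04 in Sham WT. Values with this trend and that of exonic length removed are given beside each gene whose call they changed or whose share of the rise left they moved by more than the SD over TAC KO libraries, and the shares of all 10 are plotted both ways.

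The promoter windows of 3 of the genes are shown, those of Sprr1a and Cnksr1 because they alone held the AP-1 letters, and that of Ppm1e because its level in TAC KO was that of Sham WT. Each window holds 250 bases before and 50 bases after a RefSeq transcript start of build GRCm38.p6, written 5′ to 3′ on the strand of the gene, and capitals mark the AP-1 letters TGAGTCA. The windows are chr3:92485832-92486131, minus strand, for Sprr1a, chr4:134238350-134238649, minus strand, for Cnksr1, and chr11:87358945-87359244, minus strand, for Ppm1e.
Sprr1a: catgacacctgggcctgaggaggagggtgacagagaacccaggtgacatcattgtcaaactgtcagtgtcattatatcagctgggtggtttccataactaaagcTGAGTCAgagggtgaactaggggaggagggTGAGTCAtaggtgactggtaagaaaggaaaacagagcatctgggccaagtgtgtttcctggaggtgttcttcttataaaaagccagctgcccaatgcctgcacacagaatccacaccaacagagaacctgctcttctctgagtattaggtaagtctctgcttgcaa
Cnksr1: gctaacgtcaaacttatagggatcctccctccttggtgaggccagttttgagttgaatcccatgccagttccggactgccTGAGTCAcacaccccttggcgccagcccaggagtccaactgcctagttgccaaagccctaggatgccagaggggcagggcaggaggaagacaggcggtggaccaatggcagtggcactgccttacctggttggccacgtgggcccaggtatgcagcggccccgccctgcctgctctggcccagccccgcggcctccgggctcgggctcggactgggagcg
Ppm1e: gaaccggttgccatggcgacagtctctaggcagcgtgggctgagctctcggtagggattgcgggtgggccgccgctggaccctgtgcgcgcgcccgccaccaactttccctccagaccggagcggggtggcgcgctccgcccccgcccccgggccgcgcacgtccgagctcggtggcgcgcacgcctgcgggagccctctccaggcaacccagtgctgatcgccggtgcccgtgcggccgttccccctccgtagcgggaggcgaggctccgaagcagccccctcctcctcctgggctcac

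All 10 genes matched the RefSeq table, with 13 windows among them, and 6 sets of letters were searched on both strands. The AP-1 letters TGANTCA, bound by Jun and Fos dimers, were present in 2 of the 13 windows, against 7.81% of all 32851 windows in the table. Sprr1a held 2 matches, which began 146 and 116 bases before the start, and Cnksr1 held 1 match, which began 170 bases before it. The NFAT letters GGAAAA were present in the window of Sprr1a, 91 bases before the start, and in 1 window of Serpinb1c, against 23.4% of all windows. TEAD letters CATTCC were present in 1 window of Lrp8 and in that of Lman1l, against 14.7% of all windows. Heat shock letters GAANNTTC were present in 1 window of Lrp8, against 7.86% of all windows. The CRE letters TGACGTCA, in 1.79% of all windows, and the STAT letters TTCNNNGAA, in 8.3%, were in none of the 13. None of the 6 was in the window of Ppm1e. No match overlapped another in these windows, and a match is a description of letters in the reference, not of binding in these hearts.

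In TAC WT all 10 genes were higher than in Sham WT with no overlap between the libraries of the groups, which is what they were chosen for. For comparison, 12% of all tested genes did not overlap in this direction, 19.7% were called in either direction and 9.67% were called higher, and nothing is read from this because the choice fixed it. The log2 differences, TAC WT minus Sham WT, were 4.62 for Sprr1a, 4.49 for Syndig1, 3.98 for Serpinb1c, 3.44 for Lrp8 and 3.05 for Lman1l. They were 2.05 for Nlrc3, 1.66 for Ppm1e, 1.6 for Cnksr1, 1.57 for Slc22a4 and 0.92 for Plekho1. Sprr1a had only 2 tested genes with a larger difference and Syndig1 had 4, while Plekho1 had 411. Over the alternative analyses the difference of Sprr1a ran from 2.66 to 4.95, that of Syndig1 from 3.85 to 5.13 and that of Lrp8 from 2.22 to 3.75. The order of the largest rises is thus not resolved. These differences are given as a description, with no test.

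TAC KO hearts differed from TAC WT hearts in the same 10 genes to very unequal degrees. Called lower were 8 of the 10 and called higher were 0, all 10 differences being negative, against 17.3% of all tested genes called lower, 15.7% called higher and 33% called in either direction (edgeR quasi-likelihood test, Benjamini-Hochberg adjusted p under 0.05 over 15477 genes). Cnksr1 and Sprr1a were not called, and DESeq2 called 7 lower. In 6 of the 10 every TAC KO library lay below every TAC WT library, against 15.1% of all tested genes in that direction and 28.4% in either. Syndig1, Serpinb1c, Lman1l, Slc22a4, Ppm1e and Plekho1 were the 6, and each kept its call in all 21 alternatives. The median log2 difference of the 10, TAC KO minus TAC WT, was -1.13, against -0.002 over all tested genes. Because the TAC WT libraries helped to choose the genes, a lower value in TAC KO is favoured by that choice, and the same libraries enter both differences.

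Set against Sham WT, 9 of the 10 were still higher in TAC KO and 0 were lower, against 12.8% of all tested genes called higher, 14.8% called lower and 27.6% called in either direction. Ppm1e was not called, and DESeq2 called the same number. In 7 of the 10 every TAC KO library lay above every Sham WT library, against 14.3% of all tested genes. The median log2 difference, TAC KO minus Sham WT, was 1.81, against 0.0003 over all tested genes. Without the third TAC KO library the 9 calls became 5, since Sprr1a, Lrp8, Syndig1 and Slc22a4 were no longer called. The Sham WT libraries also served in the choice of the genes, which favours a higher value in TAC KO than in Sham WT, and the same libraries enter both differences.

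**Figure D1:**
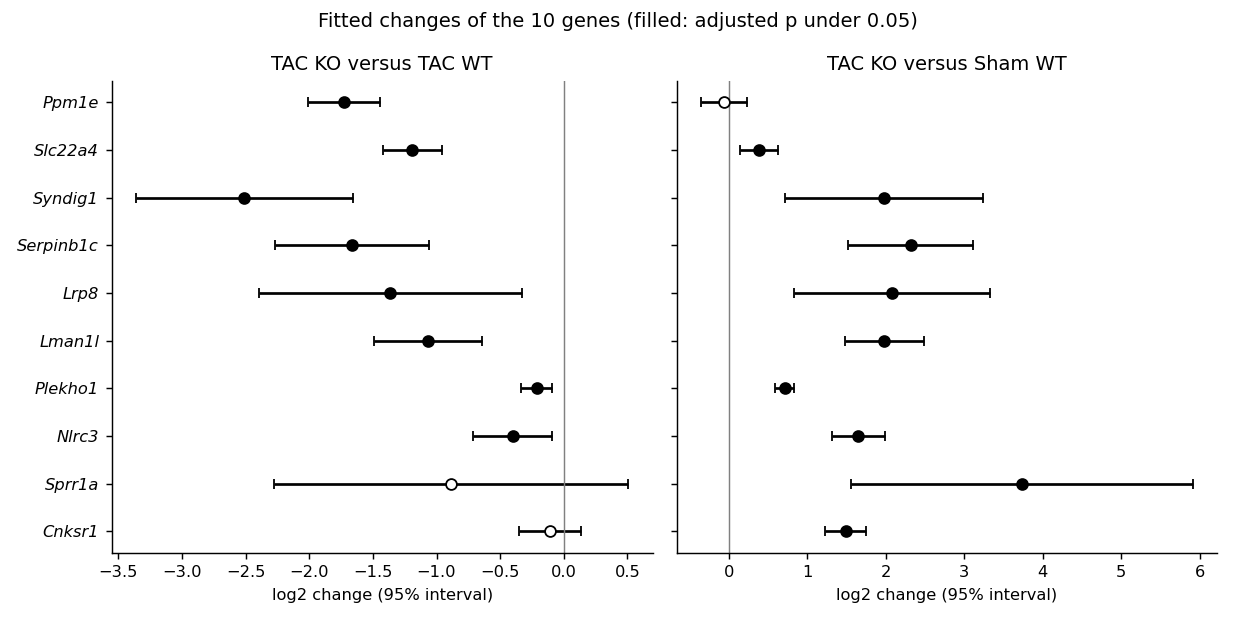
Log2 changes with 95% intervals from the edgeR fit for TAC KO versus TAC WT on the left and TAC KO versus Sham WT on the right, 1 row per gene, filled points where the adjusted p was under 0.05. On the left 8 filled points lie below 0 and those of Sprr1a and Cnksr1 are open, and on the right only Ppm1e is open.

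How much of the rise was left was expressed as the log2 difference of TAC KO from Sham WT divided by that of TAC WT from Sham WT, in percent, so that 0 is the Sham WT level and 100 the TAC WT level. Ppm1e had -3.79% ± 11.3 left and Slc22a4 had 24.3% ± 14.4 (SD over 4 TAC KO libraries here and below). This SD holds the TAC WT and Sham WT means fixed, so it leaves out the spread within those groups. Syndig1 had 44.1% ± 18.9, Serpinb1c 58.2% ± 17.1, Lrp8 60.4% ± 25.1 and Lman1l 64.97% ± 16.9. Plekho1 had 77.0% ± 3.09, Nlrc3 80.4% ± 17.5, Sprr1a 80.8% ± 32 and Cnksr1 93.1% ± 10.4. Within the middle set and within the last set, neighbours in this order lay closer together than the larger SD of each pair, so their order is not resolved. Lman1l and Plekho1, at the border of these sets, also lay closer together than the SD of Lman1l. With the GC and length trends removed their shares were 58.46% and 56.2%, so the border is not resolved either. On the linear CPM scale the shares were smaller for the genes with large rises, and were 13.7% for Syndig1, 26.7% for Serpinb1c, 32.1% for Lrp8, 40.2% for Lman1l and 50.3% for Sprr1a. For Plekho1, with its small rise, the linear share was 71.1%, for Nlrc3 it was 68.2% and for Cnksr1 88.9%. Ppm1e had a linear share of -2.02% and Slc22a4 one of 15.3%. Slc22a4 thus lay above Syndig1 on the linear scale and below it on the log2 scale, so the order of these genes depends on the scale.

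**Figure D2:**
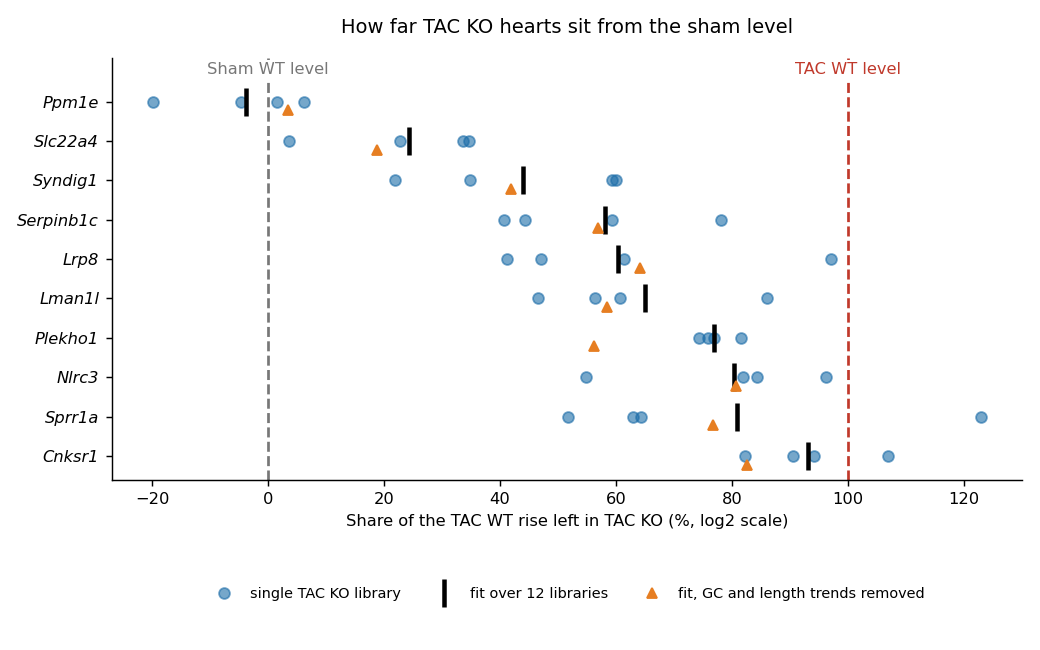
Share of the TAC WT rise left in TAC KO, in percent on the log2 scale, for each gene. Circles are single TAC KO libraries, bars the fit over 12 libraries and triangles the fit after removal of each library's trends with GC content and length. Ppm1e sits at the Sham WT level and Cnksr1 near the TAC WT level, while the triangle of Plekho1 lies well to the left of its bar.

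**Figure D3:**
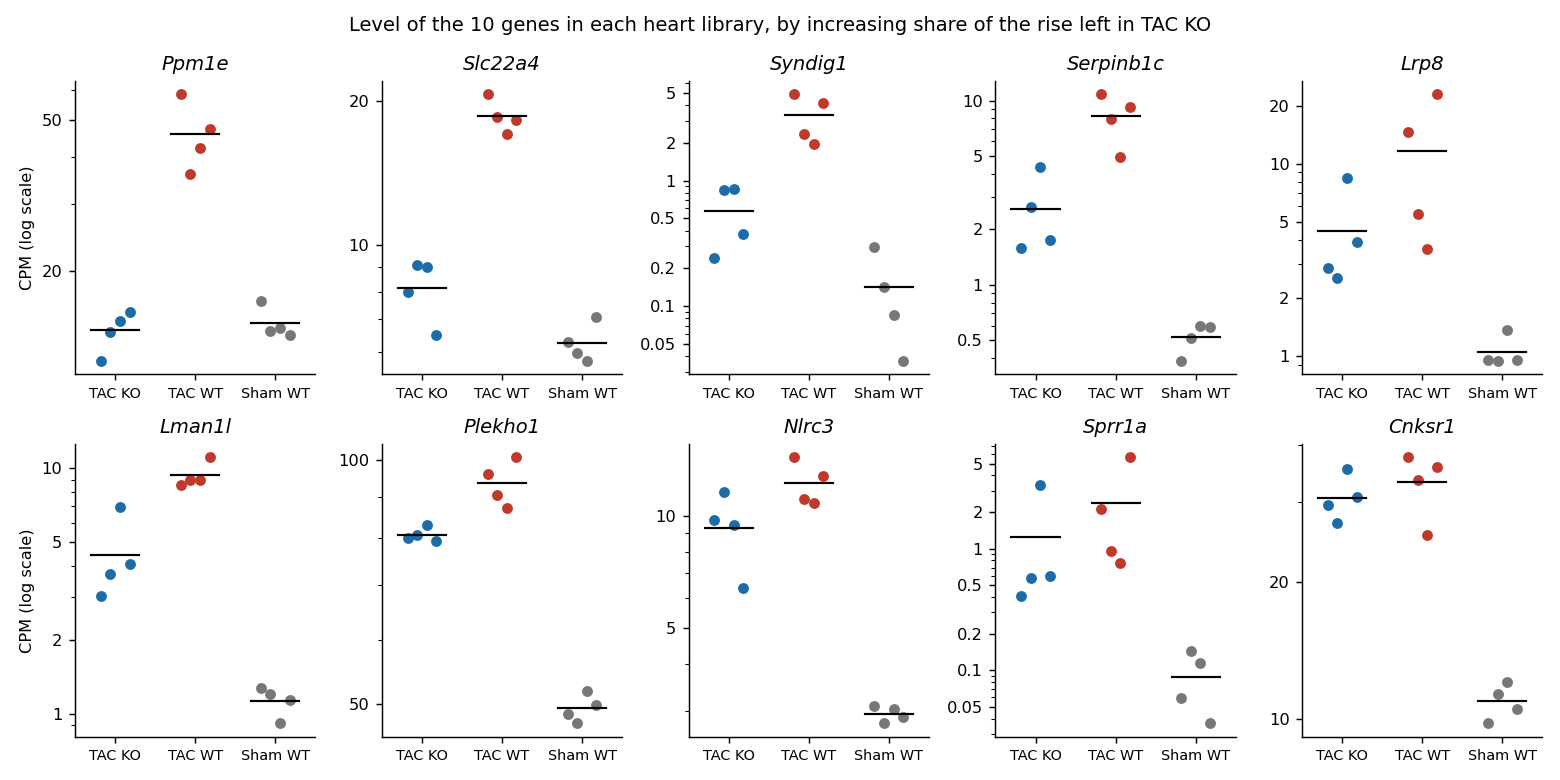
Level of each gene in CPM on a log axis, 1 point per library and a line at the group mean, with TAC KO, TAC WT and Sham WT from left to right and genes in the order of the share left. TAC KO points of Ppm1e lie among those of Sham WT, and TAC KO points of Cnksr1 lie among those of TAC WT.

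Among the genes of the cell membrane, Syndig1 encodes a transmembrane protein known from brain, where it associates with AMPA-type glutamate receptors and promotes excitatory synapses. The gene is on chromosome 2 from 149829211 to 150004392 on the plus strand (GRCm38). Its level was 0.240, 0.835, 0.855 and 0.372 CPM in TAC KO, 4.86, 2.34, 1.95 and 4.15 CPM in TAC WT and 0.297, 0.143, 0.0857 and 0.0367 CPM in Sham WT. Every TAC KO library was below every TAC WT library, but the lowest TAC KO library lay below the highest Sham WT library. The Sham WT values rest on 10, 5, 3 and 1 counts. The difference between TAC KO and TAC WT was -2.51 ± 0.40 on the log2 scale (SE, edgeR adjusted p = 0.00048), the largest fall of the 10. Against Sham WT the difference was 1.98 ± 0.59 (SE, edgeR adjusted p = 0.0231), and it lost its call without any 1 of 5 libraries, namely the TAC KO libraries 2 and 3 and the Sham WT libraries 2, 3 and 4, with edgeR adjusted p between 0.0527 and 0.0685. Syndig1 shares 290 exonic bases with C530025M09Rik on the opposite strand, which had 0 counts in TAC KO, 2 in TAC WT and 0 in Sham WT.

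Of 8 relatives and AMPA receptor subunits, 2, Prrt1 and Gria3, had enough counts to be tested, and neither was called in any of the 3 comparisons by edgeR. Gria3, an AMPA receptor subunit, had the one unadjusted p under 0.05 (0.0259 for TAC WT over Sham WT, edgeR adjusted p = 0.0965) and averaged 1.22 CPM in TAC KO, 1.48 CPM in TAC WT and 1.06 CPM in Sham WT. Summed markers of neurons and Schwann cells were 4.95 to 7.49 CPM in TAC KO, 5.97 to 8.0 CPM in TAC WT and 8.11 to 9.35 CPM in Sham WT. Sham WT, with the least Syndig1, thus had the highest marker sums. In heart RNA of many cell types, fewer cells of a type and less RNA per cell cannot be told apart, here and for every gene that follows.

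Lrp8 encodes a receptor of the LDL receptor family that binds reelin and, in mouse brain and testis, takes up selenoprotein P. It lies on chromosome 4 from 107802261 to 107876840 on the plus strand. Its level was 2.88, 2.54, 8.46 and 3.92 CPM in TAC KO, 14.5, 5.45, 3.60 and 22.9 CPM in TAC WT and 0.951, 0.944, 1.37 and 0.953 CPM in Sham WT. TAC KO and TAC WT overlapped, with the third TAC KO library above 2 of the TAC WT libraries, and both lay above Sham WT throughout. Between TAC KO and TAC WT the difference was -1.36 ± 0.48 on the log2 scale (SE, edgeR adjusted p = 0.0425). This call was lost in 13 of 21 alternatives, with adjusted p between 0.00182 and 0.2385 over all of them, and without the fourth TAC WT library the difference was -0.82 (edgeR adjusted p = 0.180). With the trends in GC content and length removed it was -1.23 (edgeR adjusted p = 0.0773). Against Sham WT the difference was 2.08 ± 0.59 (SE, edgeR adjusted p = 0.0173), and without the third TAC KO library it was 1.56 (edgeR adjusted p = 0.0604).

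Other members of the receptor family and the reelin pathway numbered 17, of which 14 were tested. In TAC KO over TAC WT 5 were called higher and 2 lower, against 15.7% and 17.3% of all tested genes. In TAC WT over Sham WT 2 were called higher and 1 lower, against 9.67% and 10%. Lrp11 was the relative with the largest difference between TAC WT and Sham WT, at 0.554 CPM in TAC KO, 0.727 CPM in TAC WT and 0.243 CPM in Sham WT, with 1.56 on the log2 scale between those groups (edgeR adjusted p = 0.00241). Lrp4, a co-receptor of agrin at the nerve-muscle junction, went the other way, at 9.37 CPM in TAC KO, 6.48 CPM in TAC WT and 11.1 CPM in Sham WT, with -0.78 between TAC WT and Sham WT and 0.53 between TAC KO and TAC WT. Lrp1, an endocytic receptor, differed by 0.36 between TAC WT and Sham WT. Between TAC KO and TAC WT, Selenop, the selenoprotein P that Lrp8 binds, differed by 0.42, the receptor chaperone Lrpap1 by 0.28, Lrp10 by 0.25 and Mylip, a ligase that degrades LDL receptors, by 0.43. The sorting receptor Sorl1 differed by -0.91 and the Wnt co-receptor Lrp6 by -0.42 in the same comparison, and the call of Mylip was lost with GC and length trends removed. Reln, which encodes the ligand, and Vldlr, the other reelin receptor, were not called in any comparison, and Vldlr averaged 316 CPM in TAC KO, 291 CPM in TAC WT and 334 CPM in Sham WT.

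Slc22a4 encodes a transporter of the organic cation family whose best known substrate is ergothioneine. It lies on chromosome 11 from 53983123 to 54028090 on the minus strand. Its level was 8.0, 9.09, 9.0 and 6.5 CPM in TAC KO, 20.6, 18.5, 17.0 and 18.2 CPM in TAC WT and 6.27, 5.95, 5.74 and 7.07 CPM in Sham WT. TAC WT stood apart from both other groups, and 3 of the 4 TAC KO libraries were above all of Sham WT while the fourth was among them. TAC KO differed from TAC WT by -1.19 ± 0.11 on the log2 scale (SE, edgeR adjusted p = 1.26e-05) and from Sham WT by 0.38 ± 0.11 (SE, edgeR adjusted p = 0.0217). The second of these was lost in 5 of 21 alternatives, among them removal of the GC and length trends (0.30, edgeR adjusted p = 0.0875) and of the third TAC KO library (0.33, edgeR adjusted p = 0.0589), and the adjusted p over all alternatives lay between 0.00513 and 0.0875.

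Its closest relative by sequence, Slc22a5, the carnitine transporter, had the opposite pattern of means, with 20.7 ± 2.82 CPM in TAC KO, 14.9 ± 2.84 CPM in TAC WT and 19.1 ± 1.74 CPM in Sham WT (SD, n = 4 each). Slc22a5 differed by 0.47 on the log2 scale between TAC KO and TAC WT (edgeR adjusted p = 0.0116, ranges overlapping) and by -0.35 between TAC WT and Sham WT, which was not called (edgeR adjusted p = 0.0653). The longest transcripts of Slc22a4 and Slc22a5 were 77.9% identical over 69.8% of Slc22a4. Slc22a3, another organic cation transporter, differed by 0.69 between TAC KO and TAC WT and by -1.05 between TAC WT and Sham WT, and Slc22a23 by -0.35 between TAC KO and TAC WT. Of the 10 relatives 8 were tested. Slc22a3, Slc22a5 and Slc22a23 were the 3 called between TAC KO and TAC WT, and Slc22a3 was the only one called between TAC WT and Sham WT. Of all tested genes, 33% and 19.7% were called in either direction in these comparisons.

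In the secretory route, Lman1l encodes a protein like Lman1, the lectin that ferries glycoproteins out of the endoplasmic reticulum. The gene is on chromosome 9 from 57607085 to 57620774 on the minus strand. Its level was 3.02, 3.73, 6.98 and 4.09 CPM in TAC KO, 8.58, 8.95, 8.97 and 11.1 CPM in TAC WT and 1.28, 1.2, 0.914 and 1.14 CPM in Sham WT. The 3 groups did not overlap, with TAC KO between the other two. TAC KO differed from TAC WT by -1.07 ± 0.20 on the log2 scale (SE, edgeR adjusted p = 0.00129) and from Sham WT by 1.98 ± 0.24 (SE, edgeR adjusted p = 8.68e-05). All 4 relatives (Lman1, Lman2, Lman2l and the Lman1 partner Mcfd2) were tested, and 0 were called between TAC KO and TAC WT by edgeR, nor did any have an unadjusted p under 0.05 there, while 1, Mcfd2, was called higher in TAC WT than in Sham WT, by 0.20, with overlapping ranges and the call lost in 8 of 21 alternatives (adjusted p up to 0.236).

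Serpinb1c encodes a clade B serpin, the intracellular branch of the serine protease inhibitors, and its mouse relative Serpinb1a is an inhibitor of neutrophil elastase and cathepsin G. It lies on chromosome 13 from 32881434 to 32898211 on the minus strand. Its level was 1.58, 2.63, 4.39 and 1.75 CPM in TAC KO, 10.8, 7.97, 4.96 and 9.25 CPM in TAC WT and 0.386, 0.515, 0.600 and 0.586 CPM in Sham WT. The groups did not overlap, though the third TAC KO library came close to the third TAC WT library. Serpinb1c in TAC KO differed from TAC WT by -1.66 ± 0.28 on the log2 scale (SE, edgeR adjusted p = 0.00075) and from Sham WT by 2.31 ± 0.37 (SE, edgeR adjusted p = 0.000596). The transcript of Serpinb1c was 87.6% identical to that of Serpinb1a over 85.2% of its length and 82.1% identical to that of Serpinb1b over 99.9%, so some reads may not be assigned to 1 of them with certainty, depending on the authors' counting. Serpinb1b had 1 count in TAC KO, 7 in TAC WT and 2 in Sham WT over the 4 libraries of each group. Serpinb1a averaged 5.18 ± 1.83 CPM in TAC KO, 7.05 ± 4.82 CPM in TAC WT and 3.90 ± 0.382 CPM in Sham WT (SD, n = 4 each) and was called in none of the 3 comparisons.

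Of 25 relatives and target proteases 6 were tested. Against 9.67% of all tested genes, 3 of the 6 were called higher in TAC WT than in Sham WT. These were Serpinb9b, a relative of the granzyme B inhibitor, with a log2 difference of 2.32 at levels of 0.442 CPM in TAC WT and 0.0832 CPM in Sham WT, Serpinb6b with 0.47 and Serpinb6a with 0.23. The values of Serpinb9b rest on 56 counts in TAC WT and 11 in Sham WT over all libraries of each group. Its call was lost in 1 of 20 alternatives (adjusted p up to 0.0562). Between TAC KO and TAC WT only Serpinb6b was called, at -0.27, while Serpinb9b differed by -0.22 and was not called (edgeR adjusted p = 0.697). Summed neutrophil markers were 1.99 to 14.1 CPM in TAC KO, 2.09 to 4.21 CPM in TAC WT and 1.06 to 4.61 CPM in Sham WT, and Elane, the neutrophil elastase gene, had 0 counts in all 12 libraries. The part of neutrophils in the values of Serpinb1c was not tested.

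Sprr1a encodes a small proline-rich protein that transglutaminases cross-link into the cornified envelope of skin, and it is known to be induced in mouse cardiomyocytes by cytokines that signal through gp130. Its locus is on chromosome 3 from 92483952 to 92485895 on the minus strand. Its level was 0.412, 0.578, 3.36 and 0.601 CPM in TAC KO, 2.13, 0.954, 0.767 and 5.65 CPM in TAC WT and 0.0594, 0.143, 0.114 and 0.0367 CPM in Sham WT. One TAC KO library, the third, stood far above the others of its group and above 3 TAC WT libraries. Counts in Sham WT were 2, 5, 4 and 1. The difference of -0.89 ± 0.65 on the log2 scale between TAC KO and TAC WT was not called (SE, 95% interval -2.28 to 0.51, edgeR adjusted p = 0.319). Without the third TAC KO library the difference was -2.12 (edgeR adjusted p = 0.0166), without the fourth TAC WT library -0.04 (edgeR adjusted p = 0.971), and with 1 surrogate variable 0.06 (edgeR adjusted p = 0.924), so the size of the difference rested on single libraries. Adjusted p over all 20 alternatives lay between 0.0166 and 0.971. Against Sham WT the difference was 3.73 ± 1.02 (SE, edgeR adjusted p = 0.0147), and 2.5 (edgeR adjusted p = 0.0595) without the third TAC KO library.

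Sprr1b, its nearest relative at 76.7% identity over 64.4% of the transcript, had 0 counts in all 12 libraries. Of 18 relatives and cornified envelope genes 2 were tested, both transglutaminases. Tgm2 averaged 379 CPM in TAC KO, 364 CPM in TAC WT and 267 CPM in Sham WT, with a log2 difference of 0.45 between TAC WT and Sham WT (edgeR adjusted p = 0.00778) and none called between TAC KO and TAC WT. Summed markers of surface epithelium were 1.74 to 2.99 CPM in TAC KO, 1.64 to 2.39 CPM in TAC WT and 1.87 to 2.41 CPM in Sham WT, with all ranges overlapping. Nearly all of this sum was Krt10, with 299, 251 and 287 counts in TAC KO, TAC WT and Sham WT. Krt5, Krt14, Epcam and Cdh1 had 0 to 4 counts each in every group.

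Inside the cell, Ppm1e encodes a protein phosphatase of the PP2C family known to act on calmodulin-dependent kinases and on PAK kinases. It lies on chromosome 11 from 87226906 to 87359023 on the minus strand. Its level was 11.5, 13.7, 14.7 and 15.5 CPM in TAC KO, 58.6, 36.05, 42.1 and 47.4 CPM in TAC WT and 16.6, 13.9, 14.1 and 13.5 CPM in Sham WT. Every TAC WT library stood above both other groups, and TAC KO and Sham WT were intermingled. TAC KO differed from TAC WT by -1.73 ± 0.13 on the log2 scale (SE, edgeR adjusted p = 3.92e-06), with the call kept in all 21 alternatives. Against Sham WT the difference was -0.06 ± 0.14 (SE, edgeR adjusted p = 0.768), with a 95% interval of -0.35 to 0.23. A remaining rise of up to 0.23 on the log2 scale is thus within the interval, against 1.66 in TAC WT.

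The other phosphatases of the family and the PAK and PIX proteins numbered 17, of which 16 were tested. In TAC WT over Sham WT 2 were called higher and 2 lower, against 9.67% and 10% of all tested genes. In TAC KO over TAC WT 4 were called lower, against 17.3%. Ppm1b, at 92.3 CPM in TAC KO, 121 CPM in TAC WT and 88.6 CPM in Sham WT, had the same order at a smaller size, with 0.45 between TAC WT and Sham WT (edgeR adjusted p = 0.00247) and -0.39 between TAC KO and TAC WT (edgeR adjusted p = 0.00407). Pak1, a substrate of Ppm1e, was called 0.95 higher in TAC WT than in Sham WT on the log2 scale, but the call was lost in 5 of 21 alternatives and the difference was 0.38 with 1 surrogate variable (adjusted p = 0.322, the highest of the 21). Ppm1k, the mitochondrial phosphatase of branched-chain amino acid breakdown, averaged 49.6 CPM in TAC KO, 54.1 CPM in TAC WT and 101 CPM in Sham WT, with a log2 difference of -0.90 between TAC WT and Sham WT. Ppm1l differed by -0.43 between TAC WT and Sham WT. Also called in TAC KO over TAC WT were Pak2 at -0.34, the PIX exchange factor Arhgef6 at -0.24 and Ppm1f, the closest relative of Ppm1e by sequence, at -0.22, and Arhgef6 lost its call with GC and length trends removed.

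Cnksr1 encodes a scaffold of signalling from Ras to the MAP kinase cascade. It lies on chromosome 4 from 134228041 to 134238399 on the minus strand. Its level was 29.6, 26.9, 35.5 and 30.7 CPM in TAC KO, 37.7, 33.5, 25.4 and 35.9 CPM in TAC WT and 9.78, 11.4, 12.1 and 10.5 CPM in Sham WT. TAC KO and TAC WT libraries were intermingled, with the lowest value of all 8 in TAC WT, and both groups lay far above Sham WT. Between the TAC groups the difference, TAC KO minus TAC WT, was -0.11 ± 0.11 on the log2 scale (SE, 95% interval -0.35 to 0.13, edgeR adjusted p = 0.489), and between TAC KO and Sham WT 1.49 ± 0.12 (SE, edgeR adjusted p = 4.41e-06). Cnksr1 is rich in G and C, at 58.3% of the bases of its longest transcript against a median of 49.6% for tested genes. Once the trends were removed the difference from TAC WT was -0.28 (edgeR adjusted p = 0.0946) and the share left 82.56%. Of 11 relatives and kinases of the cascade 9 were tested. Between TAC WT and Sham WT only the scaffold Ksr1 was called, at -0.31, a call lost in 11 of 21 alternatives (adjusted p up to 0.295), and among those called between TAC KO and TAC WT were Mapk3 at 0.30, Map2k2 at 0.28 and Braf at -0.43. The call of Mapk3 was lost with GC and length trends removed.

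Plekho1 encodes a pleckstrin homology domain protein, also called CKIP-1, that binds casein kinase 2 and the ligase Smurf1 and is known to restrain hypertrophy in the mouse heart through Hdac4. Its locus is on chromosome 3 from 95988429 to 95996001 on the minus strand. Its level was 80.2, 80.7, 83.1 and 79.4 CPM in TAC KO, 96.1, 90.6, 87.1 and 101 CPM in TAC WT and 48.6, 47.3, 51.8 and 49.9 CPM in Sham WT. All 3 groups were apart, and the TAC KO libraries differed among themselves by less than those of any other gene here, with a coefficient of variation of 1.99%. TAC KO differed from TAC WT by -0.21 ± 0.06 on the log2 scale (SE, edgeR adjusted p = 0.0118) and from Sham WT by 0.71 ± 0.06 (SE, edgeR adjusted p = 4.66e-06). Its longest transcript was 58.6% G and C, the highest share of the 10. Once the trends were removed Plekho1 differed from TAC WT by -0.40 (edgeR adjusted p = 0.000454) and the share left was 56.2%. All 9 relatives and partners were tested. Plekho2 was called higher in TAC WT than in Sham WT, by 0.38, a call lost in 6 of 21 alternatives with a difference of 0.18 under 1 surrogate variable (adjusted p = 0.291, the highest of the 21). The casein kinase 2 subunits Csnk2a1 and Csnk2a2 were called lower in TAC KO than in TAC WT, with differences of -0.22 and -0.23, and both lost the call with GC and length trends removed. Hdac4 averaged 20.3 CPM in TAC KO, 17.7 CPM in TAC WT and 19.1 CPM in Sham WT and was not called.

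Nlrc3 encodes a NOD-like receptor known in mouse as a brake on innate and T cell signalling through TRAF6 and STING. The gene is on chromosome 16 from 3945007 to 3976632 on the minus strand. Its level was 9.75, 11.5, 9.43 and 6.41 CPM in TAC KO, 14.3, 11.04, 10.8 and 12.7 CPM in TAC WT and 3.09, 2.78, 3.03 and 2.90 CPM in Sham WT. Both TAC groups were well above Sham WT, and only the second TAC KO library reached into the TAC WT range. TAC KO differed from TAC WT by -0.40 ± 0.14 on the log2 scale (SE, edgeR adjusted p = 0.0451), a call lost in 12 of 21 alternatives with adjusted p between 0.00723 and 0.147. Without the fourth TAC KO library the difference was -0.26 (edgeR adjusted p = 0.106). Against Sham WT it was 1.65 ± 0.16 (SE, edgeR adjusted p = 2.05e-05).

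Of 18 relatives and partners of Nlrc3 15 were tested. Called higher in TAC WT than in Sham WT were Tmem173, which encodes STING, by 0.69, and Nod2, a sensor of bacterial cell wall fragments, by 0.47, and called lower was Pycard, the inflammasome adaptor, at -0.57. Between TAC KO and TAC WT, Pycard differed by 0.80, the mitochondrial NOD-like receptor Nlrx1 by 0.44, Nod2 by -0.51 and Traf6 by -0.26, and Traf6 lost its call with GC and length trends removed. Markers of T cells, where Nlrc3 is known to be expressed, summed to 1.74 to 3.30 CPM in TAC KO, 2.03 to 3.41 CPM in TAC WT and 2.75 to 3.26 CPM in Sham WT. Macrophage markers summed to 92.1 to 120 CPM in TAC KO, 57.9 to 84.8 CPM in TAC WT and 71.2 to 81.9 CPM in Sham WT. Of the 6 T cell markers 3 were tested and 0 were called by edgeR between TAC WT and Sham WT, but Cd4 did not overlap there, at 0.968 to 1.82 CPM in TAC KO, 1.51 to 2.18 CPM in TAC WT and 1.08 to 1.37 CPM in Sham WT. Cd4 differed by 0.57 (unadjusted p = 0.0176, edgeR adjusted p = 0.0746) and Lck by -0.70 (unadjusted p = 0.0276, edgeR adjusted p = 0.101) between TAC WT and Sham WT. Total counts in TAC WT and Sham WT were 39 and 91 for Cd3e, 10 and 21 for Cd3d and 17 and 39 for Cd3g. For Cd8a they were 28 and 20. Cd3e ranges overlapped, at 0 to 1.03 CPM in TAC WT and 0.513 to 0.973 CPM in Sham WT. Cd4 was the largest part of the T cell marker sum in each group. The part of T cells and macrophages in the values of Nlrc3 was not tested.

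Over the 10 lists of relatives and partners together, 85 of 137 genes were tested. In TAC WT over Sham WT 14.1% of them were called higher and 7.06% lower, against 9.67% and 10% of all tested genes, with a median log2 difference of 0.04. In TAC KO over TAC WT 14.1% were called higher and 15.3% lower, against 15.7% and 17.3%, with a median of -0.02. Except for Serpinb9b and Lrp11, no relative called in TAC WT over Sham WT had a log2 difference above 1. Calls lost in 3 or more of 21 alternatives, beside those given above, were those of Nod2 and Pycard in TAC WT over Sham WT, in 5 each, and in TAC KO over TAC WT those of Arhgef6 in 13, Mylip and Ppm1f in 7 each, Serpinb6b in 5, Slc22a23 in 4 and Traf6 in 3. With 1 surrogate variable the difference of Tmem173 between TAC WT and Sham WT was 0.33 (adjusted p = 0.141).

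**Figure D4:**
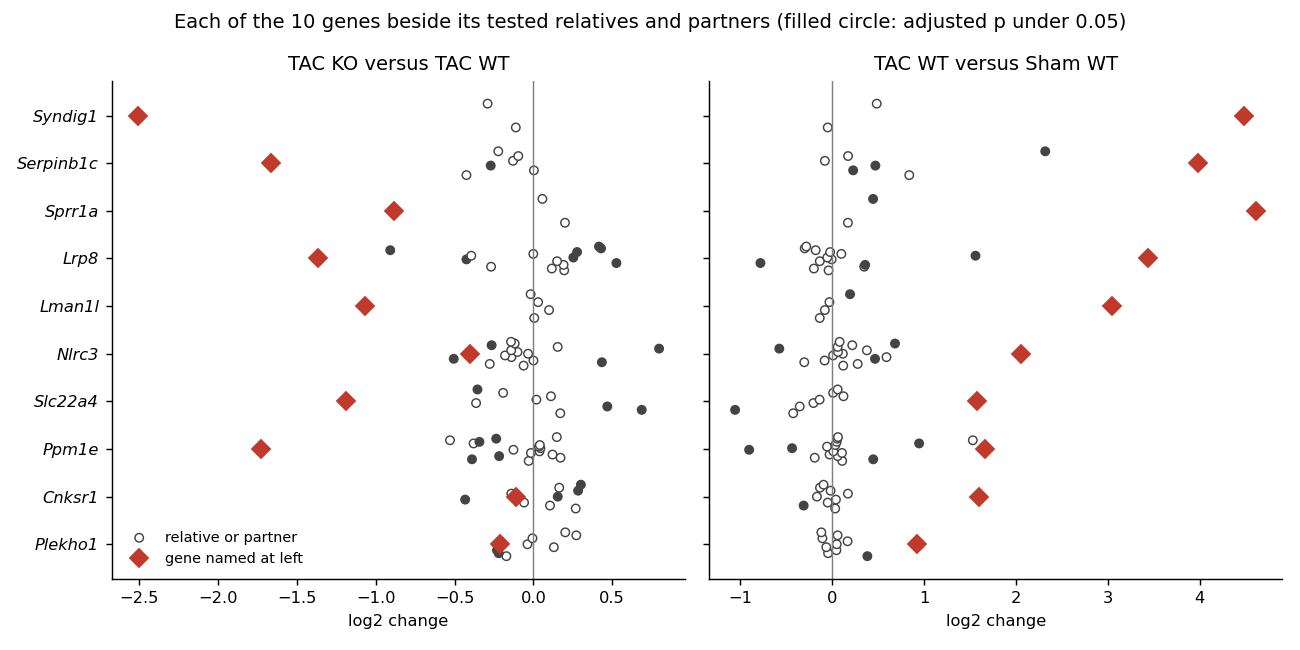
Log2 change of each of the 10 genes (red diamonds) beside its tested relatives and partners (circles, filled where the adjusted p was under 0.05), for TAC KO versus TAC WT on the left and TAC WT versus Sham WT on the right, where the diamonds lie to the right by choice. On the right, the filled circles beyond 1 are Serpinb9b and Lrp11, and the open circle beyond 1 in the Ppm1e row is Pak3, which was not called.

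Compared per kilobase of exonic length, the level in TAC WT was highest for Plekho1, at 43.1 CPM per kilobase, followed by Cnksr1 at 11.8, Slc22a4 at 7.28, Ppm1e at 6.87, Lman1l at 5.58 and Serpinb1c at 5.05 CPM per kilobase. Sprr1a had 2.95, Nlrc3 1.73, Syndig1 1.35 and Lrp8 1.11 CPM per kilobase. The genes with the largest log2 rises were thus among those of lower level, with the exception of Nlrc3, which had a low level and a middling rise.

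The spread among libraries of a group was not the same for all genes. The third TAC KO library was the highest of its group for 7 of the 10 genes and the lowest for 0, and the first was the lowest for 5. The third TAC WT library was the lowest of its group for 8 of the 10, and the highest was the first for 6 and the fourth for 4. The summed stress markers had 6616, 10610, 11200 and 8883 CPM in TAC KO and 23920, 18340, 19800 and 28770 CPM in TAC WT. The highest library of each group in these markers, TAC KO 3 and TAC WT 4, was also the highest for Sprr1a, Lrp8, Lman1l and Plekho1. The part of these library differences in the results was not tested beyond leaving out each library in turn.

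**Figure D5:**
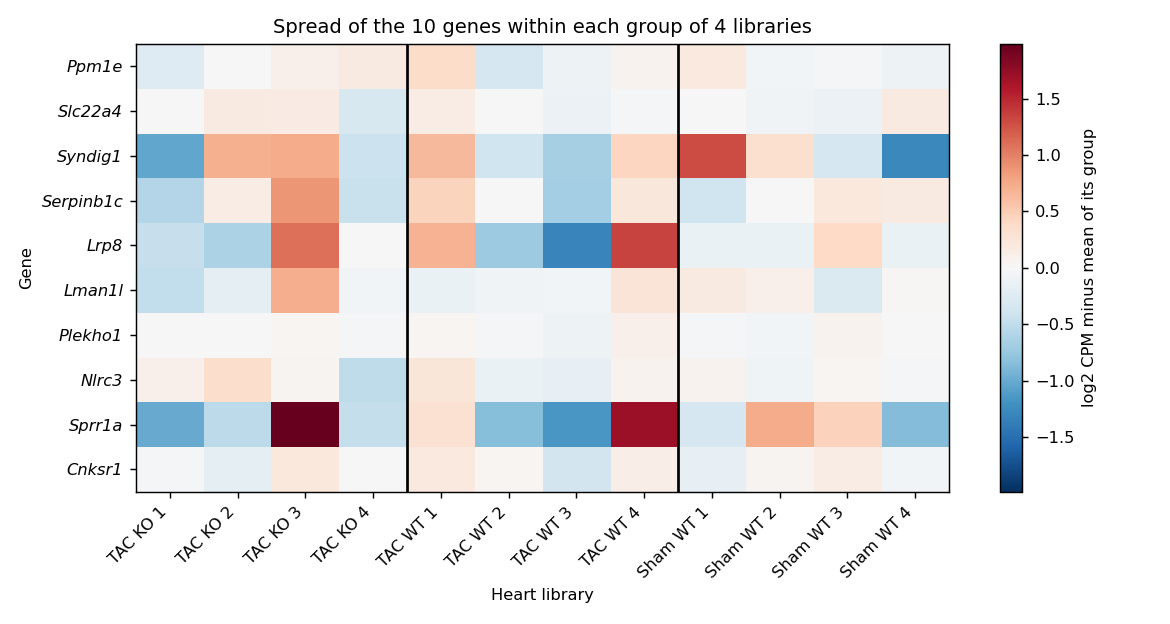
Log2 CPM of each gene (rows) in each library (columns) minus the mean of its group, red above and blue below, with lines between TAC KO, TAC WT and Sham WT. Sprr1a and Lrp8 are deepest red in TAC KO 3 and TAC WT 4, while Plekho1, Slc22a4 and Cnksr1 are pale throughout.

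The genes most like each of the 10 in their pattern over the 12 libraries were found as those with the smallest root mean square (RMS) difference in mean-centred log2 CPM, among 12029 tested genes with a mean of 1 CPM or more. The rise that chose the genes and the level left in TAC KO both enter this measure. Neighbours therefore share them by construction, and nothing is read from that. Serpinb1c was nearest to Gdf15, a stress-induced cytokine, at an RMS difference of 0.48, to the skeletal actin Acta1 at 0.49 and to Lman1l at 0.52, against 1.66 for Serpinb1c around its own mean. Lman1l was nearest to Dio2, the enzyme that activates thyroid hormone, at 0.34, to Tbx15 at 0.37 and to the natriuretic peptide Nppa at 0.38, against 1.29. Lrp8 was nearest to Star at 0.56, the slow myosin heavy chain Myh7 at 0.57 and Dio2 at 0.57, against 1.47. Less close were the neighbours of the sparsely counted genes, with Serpinb1c at 0.81, Gdf15 at 0.92 and Nppa at 0.96 for Syndig1, and Lrp8 at 0.75 and the muscle ankyrin repeat gene Ankrd2 at 0.76 for Sprr1a.

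The genes that returned most on the log2 scale had other neighbours, which the measure itself favours. Ppm1e was nearest to Nuak1, an AMPK-related kinase, at 0.23, to Mybl1 at 0.26 and to Tgfb2 at 0.27, against 0.81 around its own mean, and Slc22a4 to Enah, an actin regulator, at 0.17 and to Xirp1, which binds actin at intercalated discs, and Gcnt1, both at 0.19, against 0.68. Among the genes that returned least, Nlrc3 was nearest to Frzb, a secreted Wnt antagonist, at 0.27, to Cnksr1 at 0.31 and to Met at 0.31, against 0.90, and Cnksr1 was nearest to Myot, a Z-disc protein, at 0.22, to Mfap5 at 0.27 and to Frzb at 0.27, against 0.74. Plekho1 was nearest to the amino acid transporter Slc7a5, Qsox1 and Prnp, each at 0.12, against 0.40. With a minimum of 0.5 CPM in place of 1, 27 of the 30 neighbours, 3 for each gene, were the same genes.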

How the data were processed

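The values used were counts: whole-number counts per gene, 1 file per library, as deposited by the authors. Per the submitters' processing notes, featureCounts 1.6.4, STAR, DESeq2, Trim Galore 0.5.0, FastQC 0.11.8, bcl2fastq, MultiQC 1.7 and StringTie 1.3.5 were used with build GRCm38, without role or settings. For the annotation release and for strand in the counting, the setting is not given in the sources used here. Identifiers without their version matched the GENCODE M21 annotation for 54079 of 54146 records.

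Counts were tested in R 4.3.3 with edgeR 4.0.16 (quasi-likelihood F-test, TMM scaling, filterByExpr, all 12 libraries in 1 fit of 3 groups, Benjamini-Hochberg adjustment over 15477 genes, threshold 0.05), and the test was checked on simulated data. Levels are CPM with TMM factors. Intervals are at the 95% level, p-values measure the spread between these libraries, which may be technical, and counting limits cover counting error only. Trends with GC content and length were fitted per library by spline (5 degrees of freedom) and entered the fit as offsets. Similar transcripts were searched with BLASTN 2.17.0. Alternatives were RLE and upper-quartile scaling, DESeq2 1.42.0, voom of limma 3.58.1, other filters, fits of the compared groups, 1 surrogate variable from sva 3.50.0, the trend removal and the removal of each library.

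The 10 genes and the lists of relatives, partners and markers were chosen with earlier results of these data known. Named were the 10 genes, every relative called in TAC WT over Sham WT or TAC KO over TAC WT, and up to 3 genes of most alike pattern for each. Gria3, Prrt1, Serpinb1a, Serpinb1b, Slc22a5 in TAC WT over Sham WT, Sprr1b, Reln, Vldlr, Hdac4, Cd4, Lck and Pak3 were named after their values were seen. So were the single markers Cd3e, Cd3d, Cd3g, Cd8a, Krt5, Krt14, Krt10, Epcam and Cdh1. Some genes that this rule names are not reported here.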

Additional observations from a re-analysis of the deposited data

Results flagged for a closer look

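Among the 10 genes in 3 groups of 4 libraries, 30 sets of values were examined for a library far from the rest of its group, and 3 met Dixon's 95% criterion for the gap to the nearest library over the range of the group. Chance alone gives about 1 in 20 such sets. Sprr1a had 3.36 CPM in the third TAC KO library, against 0.412 to 0.601 CPM in the other TAC KO libraries, a gap of 0.936 of the range. Lrp8 had 1.37 CPM in the third Sham WT library, against 0.944 to 0.953 CPM in the other Sham WT libraries, a gap of 0.98 of the range. Lman1l had 11.1 CPM in the fourth TAC WT library, against 8.58 to 8.97 CPM in the other TAC WT libraries, a gap of 0.846 of the range. The third TAC KO library was also the highest of its group in the summed ventricular stress markers, at 11200 CPM, and the fourth TAC WT library the highest of its group, at 28800 CPM. Their part in the values of Sprr1a and Lman1l was not tested.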

How the results depend on the processing

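No paired analysis was possible because the labels carry no replicate numbers. Calls of the 10 genes in TAC KO versus TAC WT numbered 8, and 6 to 8 over the removals of 1 library and over the other alternatives. In TAC KO versus Sham WT they numbered 9, and 5 to 9 over removals of 1 library, with 5 only without the third TAC KO library. Genes called in TAC WT versus Sham WT fell to 1526 with 1 surrogate variable, against 3051, and ranged from 2251 to 3474 over removals of 1 library and up to 4288 over the others, while in TAC KO versus TAC WT they were 5110 (3934 to 5225 over all alternatives) and in TAC KO versus Sham WT 4273 (3070 to 5200). With the GC and length trends removed, the share of the rise left became 82.56% for Cnksr1 and 56.2% for Plekho1. Over removals of 1 library that of Plekho1 ran from 74.32% to 80.35%, that of Sprr1a from 54.09% to 99.02%, that of Lrp8 from 45.28% to 71.81% and that of Ppm1e from -6.938% to 1.299%. Over 209 gene-by-alternative results, TAC KO versus TAC WT kept its side of the threshold in 183, lost the call in 25 and gained it in 1, and TAC KO versus Sham WT kept it in 197 and lost it in 12. No called result changed direction. Uncalled ones turned sign for Sprr1a between TAC KO and TAC WT (0.06 with 1 surrogate variable) and for Ppm1e between TAC KO and Sham WT, which was 0.06 with the trends removed, 0.01 with voom, 0.02 without TAC KO 1 and 0.01 without Sham WT 1. The causes of these changes were not tested. Sprr1a had no value under the filter of 1 CPM in 4 libraries. Depth limits Sprr1a and Syndig1 in Sham WT, where they had 12 and 19 counts over 4 libraries.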
